A study of Mus musculus with 9 samples.

Results

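The genes described here are those of mouse ubiquitin-specific proteases (USPs) other than Usp28. They were taken as every gene of the expression table whose symbol begins with Usp and a digit, leaving out Usp28, its closest relative Usp25 and pseudogenes, which gave 54 of 30128 genes. Of the 54, 41 reached an RPKM (reads per kilobase of gene length, adjusted for library depth) of at least 0.5 in at least 3 libraries and were tested. The pattern also takes in 3 genes that are not proteases of the family by name. They are Usp6nl, which encodes an activator of Rab GTPases, and Usp46os1 and Usp46os2, annotated as an antisense and a processed transcript on the strand opposite Usp46.

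RNA was sequenced from left ventricular tissue of 9 mouse samples, 3 to a group. Control samples were wild type, and their labels name no virus. The 6 others came from db/db mice, which lack a working leptin receptor and develop obesity and diabetes. Of these, 3 had been given AAV9_null (null virus), an adeno-associated virus of a serotype that reaches heart muscle, here without USP28. The other 3 had been given AAV9_USP28 (USP28 virus), in which the cTnT promoter, that of cardiac troponin T, drives USP28 in cardiomyocytes. The study asked what raising USP28 does in the failing, remodelling heart of diabetic mice, and the comparison made here asks whether transcripts of other USPs were lower in db/db hearts, as that of Usp28 was. Strain, sex, age and virus dose are not in the labels. Genotype and empty virus entered together in the null-virus group, so their parts cannot be told apart. Nothing in the labels ties each library to an animal of its own, so the p-values speak only of the spread among these 9 samples.

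USPs are cysteine proteases that cut ubiquitin, a small protein tag, from other proteins or from chains of ubiquitin. Removing the tag can spare a protein from the proteasome, return a receptor from the endosome to the cell surface, or reset a mark on a histone. Heart muscle relies on the ubiquitin system to renew sarcomere proteins and to clear damaged mitochondria. Roles given below are known mainly from human and mouse cells and are background to the values. USP28 itself is known for stabilising nuclear proteins such as Myc.

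Usp28 and Usp13 are the reference gene and the USP gene with the lowest change in db/db hearts, and their promoters are shown for that reason. Each RefSeq window (build GRCm38.p6) runs from 250 bases before the annotated transcript start to 50 bases after it, on the plus strand. Capitals mark GC boxes (GGGCGG on either strand), the element bound by Sp1, and in Usp13 also a match to the MEF2 motif, named for a factor of muscle genes. The Usp28 window is chr9:48985135-48985434 and the Usp13 window chr3:32817376-32817675.
Usp28: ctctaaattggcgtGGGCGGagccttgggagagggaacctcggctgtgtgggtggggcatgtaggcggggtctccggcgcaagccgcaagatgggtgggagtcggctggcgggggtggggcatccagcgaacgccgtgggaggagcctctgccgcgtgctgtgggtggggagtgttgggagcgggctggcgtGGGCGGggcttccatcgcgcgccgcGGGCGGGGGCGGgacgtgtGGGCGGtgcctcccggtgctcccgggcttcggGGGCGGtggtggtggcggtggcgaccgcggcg
Usp13: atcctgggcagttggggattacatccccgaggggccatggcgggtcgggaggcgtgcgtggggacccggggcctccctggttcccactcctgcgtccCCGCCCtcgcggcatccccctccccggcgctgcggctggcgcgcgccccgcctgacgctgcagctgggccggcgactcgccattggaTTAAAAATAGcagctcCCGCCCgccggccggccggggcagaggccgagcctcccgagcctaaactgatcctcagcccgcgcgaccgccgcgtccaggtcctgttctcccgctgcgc
The Usp28 window held 6 GC boxes and the Usp13 window 2. The MEF2 match lay 66 bases before the Usp13 start, and no match was found in the Usp28 window. Of 27025 genes with windows of the same length, 38.2% held a GC box and 3.7% a MEF2 match, a motif searched after the Usp13 sequence had been seen. Windows were available for 30 of the tested USP genes, and 21 of the 30 held a GC box and 1 of the 30 a MEF2 match. These are matches of letters and not binding sites.

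Levels below are scaled RPKM, RPKM after a further trimmed-mean scaling between libraries, and can be set side by side between genes because they are per length. In control hearts 5 of the tested USP genes had a mean of 10 or more, namely Usp8 (23.9 ± 0.577, SD, n = 3), Usp15 (21.2 ± 0.235), Usp13 (18.5 ± 0.0545), Usp47 (17.4 ± 0.833) and Usp19 (11 ± 0.652). Usp28 had a control level of 13.2 ± 0.658, which lies between those of Usp47 and Usp19. The lowest control levels among the tested genes belonged to Usp6nl (0.44 ± 0.0394) and Usp49 (0.501 ± 0.0541). Of the exon bases of Usp49, 52.3% overlap other genes, so part of its reads may belong to them.

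**Figure D1:**
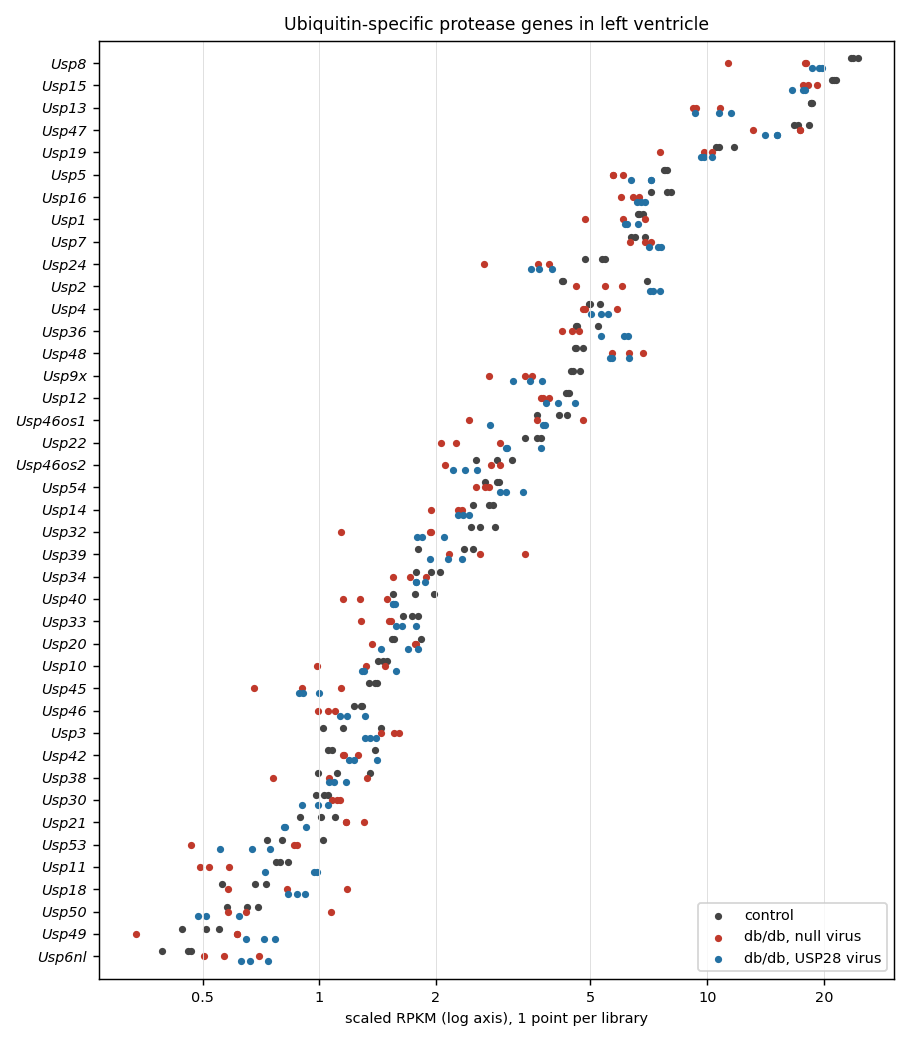
Scaled RPKM on a log axis for the 41 tested genes in order of control mean, 1 point per library, with control in grey, null virus in red and USP28 virus in blue. Control levels run from 0.44 for Usp6nl to 23.9 for Usp8, and the 3 red Usp13 points (9.19 to 10.8) stand well left of the grey ones.

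The remaining 13 genes stayed under the filter and were not tested. Usp35, Usp31, Usp37, Usp43 and Usp27x had reads in all 9 libraries, with highest deposited RPKM values of 0.585, 0.466, 0.458, 0.359 and 0.227. Usp29, a gene of testis and brain, peaked at 0.00923. The 5 genes Usp17la, Usp17lb, Usp17lc, Usp17ld and Usp17le are near-identical copies, between which reads cannot be placed with certainty, and none exceeded 8 reads in a library. Usp51 had 2 reads in 1 library, and Usp9y on chromosome Y had 10 reads in USP28-virus replicate 2 and 0 elsewhere. The chromosome Y genes Ddx3y (5.55 to 11.1 scaled RPKM), Eif2s3y (7.66 to 11.7), Kdm5d and Uty were present in all 9 libraries. For a gene at 0, a count of 3 is the upper limit that counting error alone allows, or 0.0531 to 0.0834 RPM depending on the library.

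Before the comparisons, 2 libraries stood apart. Null-virus replicate 1 departed from its group mean by a mean of 0.334 on the log2 scale, against 0.144 to 0.214 for the 8 other libraries, and had the smallest depth (35970332 reads). Reads of the 54 genes made up 0.0881% of its total, against 0.127% to 0.141% elsewhere. Ryr2, the calcium release channel with a long transcript, was at 23.1 scaled RPKM against 61.8 and 70.0 in the other null-virus libraries, while Tnni3, with a short one, was at 3730 against 1970 and 1780. USP28-virus replicate 1 held atrial transcripts, with Myl7 at 90.1 and Myl4 at 50.8 against at most 4.72 and 3.44 in any other library. Summed cardiomyocyte markers (7 genes) were high in every library, between 21400 and 30600 scaled RPKM. In the order control, null virus and USP28 virus, the 7 endothelial markers summed to 69.7 to 82.3, 85.6 to 111 and 93.8 to 109, and the 7 macrophage markers to 22.2 to 27.2, 15.9 to 19.9 and 16.4 to 20.1. The 7 fibroblast markers summed to 75.4 to 90.7, 73.4 to 84.5 and 75.3 to 89.3, and all 7 lymphocyte markers were under the filter. Most of the fibroblast sum was Dcn, at 46.8 to 70.4 across the libraries. Between control and null virus 2 of 7 cardiomyocyte markers passed as lower, Ttn (log2 -0.77) and Actc1 (-1.64), and the median of the 7 was -0.39. Ryr2 (-1.08, adjusted p = 0.057 in limma), Myh6 (-0.39) and Pln (-0.13) did not pass. The other 2 went the other way without passing, Tnnt2 (0.38) and Tnni3 (0.43). Of 4 tested atrial markers 1 passed as higher, Nr2f2 (0.64). In the other lists 3 of 7 endothelial markers passed as higher, and 3 of 6 tested macrophage markers and 4 of 7 fibroblast markers as lower. Of all genes 10.2% passed as higher and 12.2% as lower. Without passing, 2 of the 7 endothelial markers were negative and 3 of the 7 fibroblast markers positive. None of 7 smooth muscle and 5 erythrocyte markers passed. The part of these differences in the USP results was not tested, and in bulk tissue fewer cells of a type and less RNA per cell cannot be told apart.

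In db/db hearts given null virus, 9 USP genes fell and 1 rose against control. The 9 were Usp13, Usp32, Usp8, Usp24, Usp45, Usp22, Usp11, Usp9x and Usp5, at 52.9% to 74.8% of their control means, and the 1 that rose was Usp48, at 135%. The lower calls were 22.0% of the 41 tested genes, against 12.2% of all 14104 genes, and the higher call was 2.44%, against 10.2%. The median log2 change was -0.18 for the 41 genes, where it was 0.01 for all genes, with 28 negative and 13 positive. Groups did not overlap for 17 USP genes that were lower in all 3 null-virus libraries and for 5 that were higher, while the shares over all genes were 21.7% and 19.5%. Calls are from limma with Benjamini-Hochberg adjustment over all genes at 0.05. With null-virus replicate 1 left out, 10 USP genes were lower and 1 higher, beside 16.3% and 15.3% of all genes, and the median of the 41 was -0.10. Leaving out control replicate 1 gave 3 lower (8.07% of all genes), and leaving out control replicate 2 or control replicate 3 gave 2 (5.7% and 5.47% of all genes). USP genes higher numbered 2 when control replicate 1 was left out (7.02% of all genes), and 0 when control replicate 2, control replicate 3 or null-virus replicate 2 was. Over all genes 668, 694 and 1116 were then higher, in that order. The tested USP genes are long (median 7048 bases, against 3263 for all tested genes). With a trend on gene length taken out of each library 8 were lower and 2 higher (12.6% and 11.4% of all genes), with a median of -0.07. The genes called then differed in part. Usp9x and Usp11 missed the threshold in limma (adjusted p = 0.062 and 0.055), while Usp15 passed as lower and Usp3 as higher (adjusted p = 0.039 and 0.041).

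**Figure D2:**
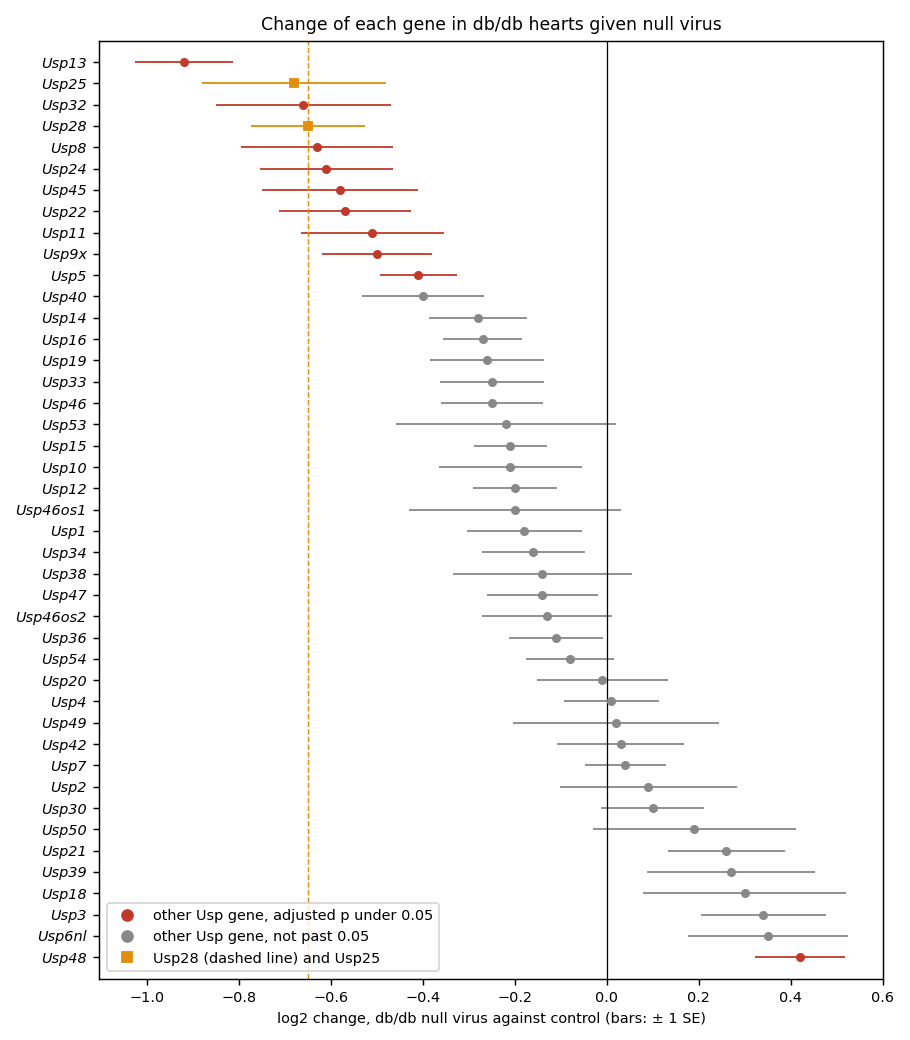
Log2 change of each tested gene between control and null virus, with bars of 1 SE, red where adjusted p was under 0.05 and grey elsewhere, beside Usp28 and Usp25 in orange. The change of Usp28 (-0.65, dashed line) has Usp13 (-0.92) and Usp32 (-0.66) to its left among the USP genes, and the other 39 lie to its right.

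Usp28, the reference, was at 12.6, 13.2 and 13.9 scaled RPKM in the control libraries, at 10.0, 7.55 and 7.81 with null virus and at 9.84, 11.2 and 11.3 with USP28 virus. All 6 db/db libraries were below all 3 controls. The change between control and null virus was -0.65 on the log2 scale (SE 0.123, adjusted p = 0.0081), and it passed with any 1 library left out. Its relative Usp25 fell by 0.68 (SE 0.2, adjusted p = 0.041). Usp25 was at 5.95 in null-virus replicate 1 and at 10.3 and 10.8 in the other 2, against 13.2 to 14.5 in control.

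Among the genes that act on free ubiquitin chains and at the proteasome, 2 of 3 fell, where 12.2% of all genes did. Counts by role, here and below, are of few genes and were not tested as sets. Usp13, which is related to Usp5 and takes part in protein degradation at the endoplasmic reticulum, lies on chromosome 3 at 32817546 to 32938071. It was at 18.6, 18.5 and 18.5 scaled RPKM in control, 9.19, 9.37 and 10.8 with null virus, and 9.32, 11.5 and 10.7 with USP28 virus. Control libraries agreed closely, and every db/db library was well below them. The log2 change was -0.92 (SE 0.106, adjusted p = 0.0013), and -0.87 without null-virus replicate 1. Usp5, which takes apart unanchored ubiquitin chains (chromosome 6, 124815019 to 124829484), was at 7.88, 7.73 and 7.76 in control, 6.05, 5.72 and 5.71 with null virus, and 6.36, 7.14 and 7.17 with USP28 virus. The null-virus group was lowest and none of the 3 groups overlapped another. Its log2 change was -0.41 (SE 0.0842, adjusted p = 0.011). The calls of Usp13 and Usp5 held with any 1 library left out and in all 21 settings tried. Usp14, which trims chains on the proteasome, had a log2 change of -0.28 (adjusted p = 0.085) with groups that did not overlap.

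Of 4 genes of endosomes and receptor traffic, 2 fell, beside 12.2% of all genes. Usp8, which acts on cargo and sorting proteins of the endosome (chromosome 2, 126707328 to 126759297), was at 23.7, 24.5 and 23.5 in control, 11.3, 17.9 and 18.0 with null virus, and 18.6, 19.7 and 19.4 with USP28 virus. Null-virus replicate 1 was far below the other 2 of its group, and all db/db libraries were below control. Its log2 change was -0.63 (SE 0.166, adjusted p = 0.029), or -0.41 (adjusted p = 0.0023) without that library. Usp9x, a large protease of receptor traffic and cell polarity on chromosome X (13071498 to 13173328), was at 4.71, 4.45 and 4.52 in control, 2.73, 3.53 and 3.39 with null virus, and 3.15, 3.74 and 3.50 with USP28 virus. Both db/db groups lay below control and overlapped each other. The log2 change was -0.50 (SE 0.119, adjusted p = 0.02), or -0.39 without null-virus replicate 1. Both genes missed the threshold when any 1 of the 3 control libraries was left out, with adjusted p of 0.0684, 0.0908 and 0.0788 for Usp8 and 0.0588, 0.0608 and 0.0645 for Usp9x in the order of replicates. Usp33 and Usp20, a pair known for recycling beta-adrenergic receptors, had log2 changes of -0.25 and -0.01 and did not pass.

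Of Usp4, Usp11, Usp15 and Usp32, grouped here by their DUSP domain, 2 of 4 fell, beside 12.2% of all genes. Usp20, Usp33 and Usp48 also carry that domain and are described with other roles. Of these Usp48 rose (log2 change 0.42), and Usp33 (-0.25) and Usp20 (-0.01) did not pass. The count of 2 of 4 is thus not one for all genes with the domain. Usp32, a membrane-bound protease with calcium-binding hands (chromosome 11, 84984442 to 85140161), was at 2.83, 2.46 and 2.60 in control, 1.14, 1.93 and 1.94 with null virus, and 1.79, 2.10 and 1.84 with USP28 virus. Null-virus replicate 1 was again lowest. The log2 change was -0.66 (SE 0.19, adjusted p = 0.039) and moved to -0.42 (adjusted p = 0.022) without that library. It missed the threshold without any 1 of the control or USP28-virus libraries, with adjusted p between 0.0566 and 0.104. Usp11, a paralog of Usp4 and Usp15 known from DNA repair (chromosome X, 20703906 to 20720539), rested on 74 to 258 reads a library and was at 0.792, 0.775 and 0.828 in control, 0.519, 0.493 and 0.584 with null virus, and 0.989, 0.970 and 0.724 with USP28 virus. The null-virus libraries were below all 6 others. Its log2 change of -0.51 (SE 0.155, adjusted p = 0.045) passed with USP28-virus replicate 3 left out and missed with any other library left out, at 0.054 to 0.129. Usp15, which acts on TGF-beta signalling, had a log2 change of -0.21 (adjusted p = 0.092), and Usp4 one of 0.01 (adjusted p = 0.94).

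Of 9 tested genes of chromatin and the nucleus, 1 fell and 1 rose (11.1% each, beside 12.2% and 10.2% of all genes). Usp22, the histone H2B protease of the SAGA coactivator complex (chromosome 11, 61151785 to 61175055), was at 3.72, 3.38 and 3.63 in control, 2.06, 2.25 and 2.92 with null virus, and 3.03, 3.72 and 3.05 with USP28 virus. Null-virus libraries were below all others, and the USP28-virus libraries overlapped control. The log2 change was -0.57 (SE 0.144, adjusted p = 0.025), and the call was lost without control replicate 1, 2 or 3 or null-virus replicate 2 (adjusted p = 0.0708, 0.063, 0.081 and 0.0654). Usp48, a nuclear protease that acts on histone H2A (chromosome 4, 137593755 to 137658537), was at 4.77, 4.57 and 4.58 in control, 5.68, 6.84 and 6.27 with null virus, and 5.69, 5.62 and 6.29 with USP28 virus. All 6 db/db libraries were above all 3 controls. The log2 change was 0.42 (SE 0.0974, adjusted p = 0.018), 0.49 without null-virus replicate 1, and just short of the threshold without control replicate 2, control replicate 3 or null-virus replicate 2 (adjusted p = 0.0675, 0.0657 and 0.0518). Usp7, which stabilises Mdm2 and p53, was level at a log2 change of 0.04 (SE 0.0876). Usp16 (-0.27), Usp36 (-0.11), Usp49 (0.02), Usp42 (0.03), Usp21 (0.26) and Usp3 (0.34) did not pass. Every null-virus library lay below every control library for Usp16 (adjusted p = 0.054), and above every control library for Usp3 and Usp21.

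Outside these groups, 2 of 11 tested genes fell (18.2%, beside 12.2% of all genes). Usp24, a large protease known from the DNA damage response (chromosome 4, 106316213 to 106441322), was at 4.85, 5.34 and 5.46 in control, 2.66, 3.67 and 3.91 with null virus, and 3.51, 3.98 and 3.68 with USP28 virus. Both db/db groups were below control and overlapped each other. Its log2 change was -0.61 (SE 0.144, adjusted p = 0.019), -0.45 without null-virus replicate 1, and missed the threshold without control replicate 2 or 3 (adjusted p = 0.0681 and 0.0695). Usp45, known from DNA repair with Ercc1 (chromosome 4, 21767156 to 21837872), was at 1.39, 1.41 and 1.34 in control, 0.677, 1.14 and 0.902 with null virus, and 1.0, 0.907 and 0.884 with USP28 virus. All 6 db/db libraries were below control. Its log2 change was -0.58 (SE 0.17, adjusted p = 0.04), or -0.41 (adjusted p = 0.045) without null-virus replicate 1. The call was lost without any 1 of the control or USP28-virus libraries or null-virus replicate 3, with adjusted p of 0.0602 to 0.115. The 9 others of this group ranged from -0.40 for Usp40 to 0.35 for Usp6nl, with Usp53 at -0.22, Usp10 at -0.21, Usp34 at -0.16, Usp38 and Usp47 at -0.14, Usp54 at -0.08 and Usp50 at 0.19.

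The remaining tested genes did not pass. Usp19, an enzyme anchored in the endoplasmic reticulum, was at -0.26 on the log2 scale, and Usp30, which opposes mitophagy at the mitochondrial outer membrane, at 0.10. The 3 enzymes activated by the WD40 protein Wdr48 were at -0.18 (Usp1), -0.20 (Usp12) and -0.25 (Usp46), with adjusted p between 0.13 and 0.32. Usp2, an enzyme with a circadian rhythm, was at 0.09 and Usp18, which removes the interferon-induced tag ISG15, at 0.30. Usp39, a splicing factor that has lost its protease activity, was at 0.27. The opposite-strand transcripts Usp46os1 and Usp46os2 were at -0.20 and -0.13. They share 14.6% and 29.8% of their exon bases with Usp46, and with the strand setting of the counting not given in the sources used here, their reads may not be separate from those of Usp46.

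**Figure D3:**
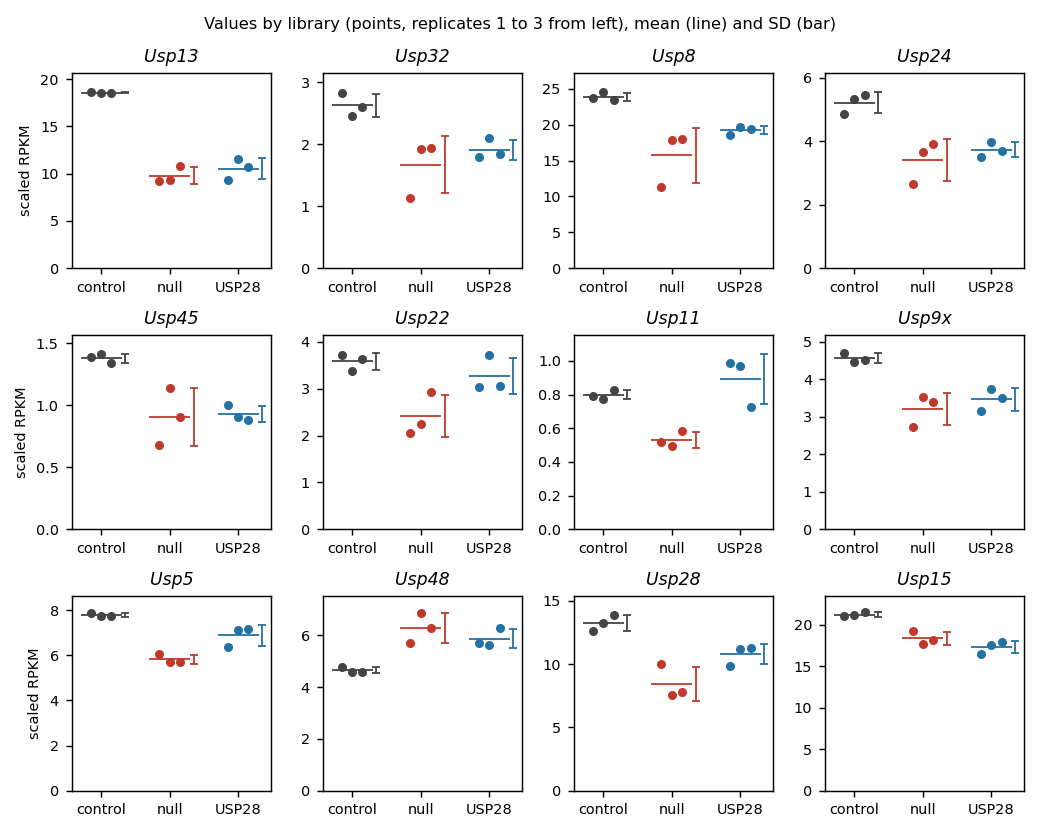
Scaled RPKM by library (points), group mean (line) and SD (bar) for the 10 USP genes that passed between control and null virus, with Usp28 and Usp15, on axes that start at 0. Null-virus replicate 1, the left red point, is the lowest of its group for Usp13, Usp32, Usp8, Usp24, Usp45, Usp22 and Usp9x, and also for Usp48, which rose.

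Whether a gene's change differed from that of Usp28 was tested directly, as the log2 difference from Usp28 within each library. Of the 41 USP genes 21 differed, each with a change above that of Usp28, and 0 lay below it past the threshold. Over the 14103 other genes tested, 57.4% lay above Usp28 and 1.3% below. These tests share the Usp28 values of each library and are not independent. The furthest above was Usp48 (difference 1.07, SE 0.175, adjusted p = 0.00077), followed by Usp6nl (1.0, SE 0.25), Usp3 (0.99, SE 0.207), Usp18 (0.95, SE 0.29), Usp39 (0.92, SE 0.185) and Usp21 (0.91, SE 0.195). Usp6nl was at 0.458, 0.394 and 0.466 scaled RPKM in control and reached the RPKM filter of 0.5 only in db/db libraries. The filter thus favours a positive change for Usp6nl, and how far its place among the 21 rests on that was not tested. Genes of high level were among the 21 too, with Usp15 at 0.44 (SE 0.115, adjusted p = 0.0087), Usp47 at 0.51 (adjusted p = 0.046), Usp7 at 0.69 (adjusted p = 0.0066) and Usp4 at 0.66 (adjusted p = 0.001). None of the 9 genes that fell passed this test. Their differences ran from -0.27 (SE 0.153) for Usp13 to 0.23 (SE 0.126) for Usp5, with SEs up to 0.271, so sizes apart from that of Usp28 remain within their error. The other 11 USP genes neither fell past the threshold nor differed from Usp28, among them Usp40 (0.25, SE 0.214), Usp14 (0.36, SE 0.159) and Usp19 (0.39, SE 0.205). The count of 21 became 35 when null-virus replicate 1 was left out, and 13 when either control replicate 2 or null-virus replicate 3 was. The shares of all genes above Usp28 were then 76.1%, 46.4% and 45.8%.

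Between null virus and USP28 virus no USP gene passed in limma, and 0 passed in voom on recovered reads. Of all genes, 0.156% were lower and 0.269% higher in limma, and voom called 73 lower and 117 higher of 14104. Without null-virus replicate 1 the limma shares were 3.6% and 2.86%, and the number of USP genes was still 0. An unadjusted p under 0.05 was reached by 6 of the 41 USP genes, where the share over all genes was 16.6%. The lowest was that of Usp11 (log2 difference 0.65, SE 0.155, unadjusted p = 0.00246, adjusted p = 0.1 in limma), followed by Usp36 (0.39, SE 0.102, adjusted p = 0.12) and Usp21 (-0.47, SE 0.127, adjusted p = 0.13). Usp22 (0.43), Usp5 (0.24) and Usp2 (0.45) had adjusted p of 0.19 to 0.29. Groups did not overlap for 11 USP genes that were higher with USP28 virus and 3 that were lower, where the shares over all genes were 11.4% and 11.8%. The median log2 difference of the 41 genes was 0.10. Usp28 itself differed by 0.35 (SE 0.123, adjusted p = 0.21), and by 0.47 (adjusted p = 0.0193) without null-virus replicate 1. The sources used here do not say whether viral USP28 reads were counted under the mouse gene.

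Usp36, a nucleolar protease, was at 4.61, 4.58 and 5.22 scaled RPKM in control, 4.22, 4.47 and 4.67 with null virus, and 6.25, 5.33 and 6.10 with USP28 virus. The USP28-virus libraries were above all 6 others. Usp21, which acts on histone H2A, was at 1.01, 1.10 and 0.891 in control, 1.17, 1.17 and 1.30 with null virus, and 0.816, 0.810 and 0.926 with USP28 virus. For Usp21 the null-virus libraries were above all others. Usp2 was at 7.01, 4.21 and 4.25 in control, 4.60, 5.44 and 6.02 with null virus, and 7.10, 7.24 and 7.56 with USP28 virus, so that control replicate 1 lay near the USP28-virus level and the other 2 controls well below it.

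Against control, the USP28-virus hearts had 2 USP genes lower and 0 higher. Over all genes, 6.53% were lower and 5.32% higher in this comparison, and the median of the USP genes was -0.08. Usp13 was at 56.7% of its control mean (10.5 ± 1.12 scaled RPKM, log2 change -0.82, SE 0.106, adjusted p = 0.0042), and its change was -0.73 without USP28-virus replicate 1, the library with atrial transcripts. Usp15 on chromosome 10 (123113244 to 123196935) was at 21, 21.2 and 21.5 in control, 19.2, 17.7 and 18.2 with null virus, and 16.5, 17.6 and 17.9 with USP28 virus. Every db/db library was below every control. The log2 change of Usp15 with USP28 virus was -0.29 (SE 0.0796, adjusted p = 0.048), and it passed only with null-virus replicate 1 among the 9 single libraries left out, with adjusted p of 0.0623 to 0.181 for the 8 others. With null-virus replicate 1 left out of the common estimate of spread, 8 USP genes were lower and 2 higher, where 15.8% of all genes were lower and 13.3% higher. Without control replicate 1, 1 gene was higher (Usp2), beside 515 of all 13967 genes. Without control replicate 1, 2 or 3, null-virus replicate 3, or any 1 USP28-virus library, 1 was lower, which was Usp13. Over all genes 184 to 923 were lower in those settings. Usp28 had a log2 difference of -0.30 (adjusted p = 0.15) from control, and of -0.30 (adjusted p = 0.0212) without null-virus replicate 1.

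For the 9 genes that fell with null virus, the means with USP28 virus lay between 56.7% and 112% of control. Usp11 was at 66.6% with null virus and 112% with USP28 virus, Usp22 at 67.4% and 91.3%, Usp5 at 74.8% and 88.4%, and Usp8 at 65.9% and 80.5%. Usp45 was at 65.7% and 67.5%, Usp24 at 65.4% and 71.4%, Usp9x at 70.5% and 76.0%, Usp32 at 63.6% and 72.6%, and Usp13 at 52.9% and 56.7%. Usp28 stood at 64.0% and 81.5%. Both percentages of a gene share the same control libraries, and none of the 9 differed between the db/db groups past the threshold. Summed over all 54 genes, scaled RPKM was 203, 194 and 196 in control, 152, 169 and 172 with null virus, and 170, 177 and 179 with USP28 virus.

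**Figure D4:**
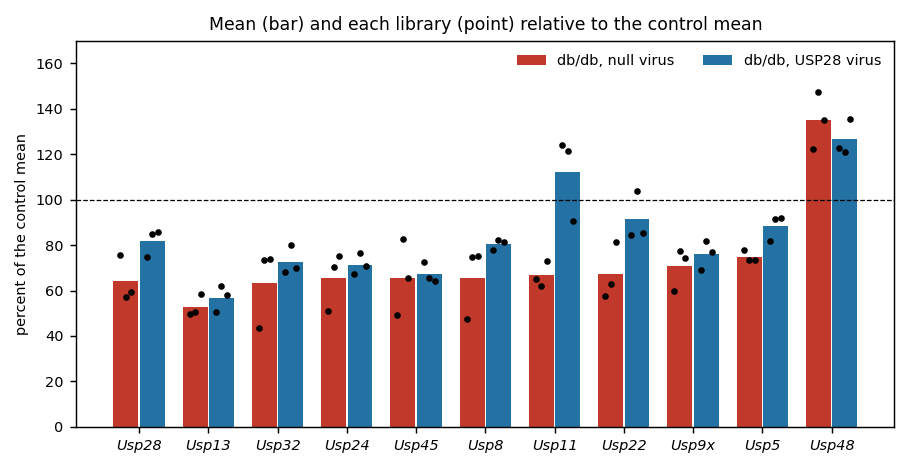
Mean (bar) and single libraries (points) as a percent of the control mean for Usp28 and the 10 USP genes that passed between control and null virus, with the control mean dashed at 100. Usp11 spans from 66.6% with null virus to 112% with USP28 virus, while Usp13 stays at 52.9% and 56.7%.

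Other deubiquitinases and their relatives were set beside the USP genes. The list holds catalytically inactive relatives such as Psmd7, and also Cyld, Pan2 and Uspl1, which have the USP fold without the Usp name. It numbered 42 genes, of which 33 were tested, and 2 fell and 3 rose between control and null virus (6.06% and 9.09%, beside the 12.2% and 10.2% of all genes), with a median log2 change of 0.14. Uchl5, a ubiquitin C-terminal hydrolase that binds the proteasome, was at 8.84, 8.24 and 8.47 scaled RPKM in control and 19.0, 16.2 and 14.2 with null virus (log2 0.93, SE 0.129, adjusted p = 0.0024), and at 10.5, 8.72 and 11 with USP28 virus. Psmd7, a subunit of the proteasome lid with no protease activity of its own, rose from 104 ± 3.91 to 154 ± 3.73 (SD, n = 3; log2 0.57, adjusted p = 0.0041), and Uchl1 from 1.42 ± 0.153 to 2.88 ± 0.108 (log2 0.98, adjusted p = 0.0041). Otud6b, of the ovarian tumour family, fell from 41.6 ± 1.05 to 21.2 ± 5.81 (log2 -1.01, adjusted p = 0.0077), and Fam63b, which cuts long ubiquitin chains, from 2.70 ± 0.427 to 1.40 ± 0.153 (log2 -0.90, adjusted p = 0.0039).

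Of 12 tested partners of USP enzymes, 2 fell and none rose, with a median of -0.09. That was 16.7% lower, beside 12.2% lower and 10.2% higher over all genes. The 2 that fell were G3bp1, a stress granule protein that binds Usp10 (log2 -0.39, adjusted p = 0.012), and Atxn7l1, a relative of the SAGA subunit that holds Usp22 (log2 -0.69, adjusted p = 0.0069). Usp10 itself was at a log2 change of -0.21 (adjusted p = 0.36). Of 5 tested genes for ubiquitin and its activating enzymes, 1 rose, namely Ubb, a gene that encodes ubiquitin itself. It was at 485, 429 and 448 scaled RPKM in control and 670, 682 and 673 with null virus (log2 0.57, SE 0.104, adjusted p = 0.0067), with no overlap between the groups. These lists were not tested against the USP genes.

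**Figure D5:**
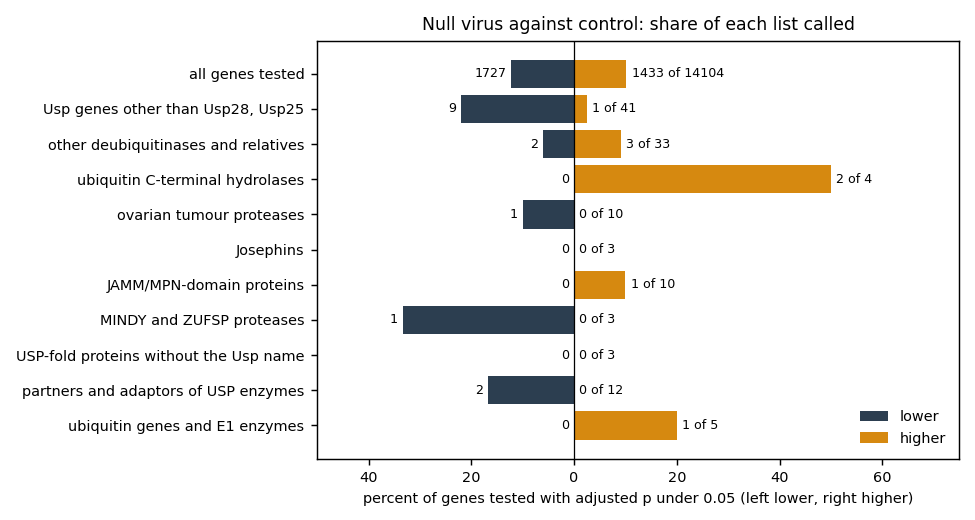
Percent of the tested genes of each list that were lower (left) or higher (right) with null virus than in control at adjusted p under 0.05, with the numbers called beside the bars. The USP bar reaches 22.0% to the left and 2.44% to the right, where all genes reach 12.2% and 10.2%.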

How the data were processed

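Messenger RNA of 9 left ventricle samples was selected by polyadenylation, made into directional libraries and read from both ends, per the labels' protocols. The submitters' processing notes name HISAT2 and DESeq2, with no version or role, and the build GRCh38, a human build. Symbols and coordinates of the deposited table are mouse, and 25416 of its 30128 gene spans are identical to GENCODE M21 on GRCm38, the build of the coordinates given here. Neither the counting program nor the strand it counted is given in the sources used here.

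The deposited values are RPKM, made by the authors for each gene and library, with gene length beside them. Multiplied by gene length, 99.9839% of values above 0 came out as whole reads within 0.01, which gave depths of 35970332 to 56497662 per library. 33 values in 11 genes were not whole, 0 of them in the genes described. Replicates were never identical: chi-square divided by its degrees of freedom lay between 19.1 and 144.

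RPKM was rescaled between libraries by trimmed means of log ratios, as in TMM (30% of ratios and 5% of levels trimmed, factors 0.8378 to 1.092). log2(scaled RPKM + 0.1) was fitted in limma 3.58.1 under R 4.3.3, with trend and robust options, over all 9 libraries in 3 groups. The 14104 genes fitted had RPKM of 0.5 or more in 3 or more libraries. P-values were adjusted by Benjamini-Hochberg over all genes of a comparison, with 0.05 as the threshold for writing that a gene rose or fell. Fold changes on this scale understate the change of low genes. Differences from Usp28 were fitted the same way on log2 values minus that of Usp28. Every USP gene past the threshold is named with its values, and others by role. The genes, lists and tests were chosen with earlier results of these data known. Alternatives were other scalings, filters and pseudocounts, a replicate block, fits of 2 groups alone, voom on the recovered reads, removal of length trends, omission of values that are not whole, and each library left out. Removal of length and GC trends together, and the MEF2 motif, were chosen after seeing the data. Figures used matplotlib 3.10.9 in Python 3.11.15.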

Additional observations from a re-analysis of the deposited data

How the results depend on the processing

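Calls for single USP genes rest on 3 libraries a group, and depth limits the genes under the filter. Between control and null virus, 9 genes were lower and 1 higher as reported. With no further scaling the numbers were 2 and 0, beside 1199 and 1229 of all 14104 genes. With the 2 groups alone they were 2 and 0, beside 968 and 722 of 13485 genes. With no filter on low values 4 were lower, beside 1185 of 30128 genes. With length trends removed 2 were higher, beside 1614 of all 14104 genes. With length and GC trends removed 2 were higher and 6 lower, beside 1591 and 1738 of 14104 genes. Leaving out 1 library gave 2 to 10 lower and 0 to 2 higher, beside 765 to 2283 and 668 to 2141 of all genes. Between control and USP28 virus, 2 were lower and 0 higher as reported. Lower genes numbered 1 with median-of-ratios scaling, 1 with no further scaling, 1 with no filter, 8 with the 2 groups alone and 4 with voom. Over all genes the lower calls in the same order were 909, 309, 511, 2094 and 1330. They were out of 14104 genes, or 30128 with no filter and 13623 with the 2 groups alone. Higher genes numbered 1 with the 2 groups alone, 2 with voom, 1 with length trends removed and 1 with length and GC trends removed. Over all genes the higher calls in that order were 1715, 999, 937 and 900. Leaving out 1 library gave 1 to 8 lower and 0 to 2 higher, beside 184 to 2219 and 190 to 1862 of all genes. The number that differed from Usp28 was 21, and 13 to 35 with 1 library left out. Over all genes 8097 of 14103 lay above Usp28, and 6334 to 10650 with 1 library left out. That comparison was not run with voom. Usp28 differed from control by -0.30 with USP28 virus, which passed with the 2 groups alone (adjusted p = 0.0307). With 1 library left out it ranged from -0.35 to -0.23, and against null virus Usp28 ranged from 0.28 to 0.47. Voom on the recovered reads called 1943 genes lower and 1616 higher between control and null virus. Direction was kept in every setting that tested them by the 10 genes called between control and null virus and by Usp13 and Usp15 between control and USP28 virus, while the median of the USP genes between control and null virus stayed negative, at -0.21 to -0.05. The cause of these differences was not tested.

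The groups share replicate numbers, and same-numbered libraries did not deviate together (r between -0.03 and 0.06). Pairs with different numbers ranged from -0.09 to 0.06. With 3 libraries a group, these values cannot show whether same-numbered samples share more than a number. With the replicate block, 6 genes were lower and 1 higher between control and null virus, beside 1494 and 1262 of all 14104 genes. Between control and USP28 virus 1 was lower, beside 724 of 14104 genes. In this setting 16 differed from Usp28, where 7310 of 14103 genes lay above Usp28 and 168 below.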
